A study of Mus musculus with 8 samples.

Results

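The dystrophin glycoprotein complex was followed through 9 of its genes: dystrophin (Dmd), its autosomal homologue utrophin (Utrn), dystroglycan (Dag1), the sarcoglycans alpha, beta, delta and epsilon (Sgca, Sgcb, Sgcd and Sgce) and the syntrophins beta 1 and beta 2 (Sntb1 and Sntb2). They were chosen by name, as the rows of the deposited count table whose Entrez gene ID maps to these symbols, and all 9 were found among the 24573 genes of the table. The rule itself uses names only, not measured values. Of the 9 genes, 8 passed the filter on low counts and were tested, and Dmd did not.

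The complex spans the muscle cell membrane. Dystrophin or utrophin binds actin inside the cell and the cytoplasmic tail of beta-dystroglycan, alpha-dystroglycan binds laminin and other matrix proteins outside, the sarcoglycans form a transmembrane subcomplex beside dystroglycan, and the syntrophins are adaptors on the cytoplasmic side that hold signalling proteins. Utrophin and epsilon-sarcoglycan are known from many tissues, whereas full-length muscle dystrophin and alpha-sarcoglycan are known as products of differentiated muscle, and loss of dystrophin or of a sarcoglycan of striated muscle causes muscular dystrophy.

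Gene expression had been measured by RNA sequencing in proliferating C2C12 cells, a mouse myoblast line that forms myotubes when serum is withdrawn. All 8 libraries came from cells transduced with lentivirus in the presence of polybrene and kept in puromycin, in 4 groups of 2: a scrambled control shRNA (scramble), or an shRNA against Brd9, Baf250A (encoded by Arid1a) or Baf180 (encoded by Pbrm1). These are subunits of the non-canonical BAF, canonical BAF and PBAF forms of the SWI/SNF chromatin remodeller. The comparisons address what knockdown of a subunit of each form does to gene expression in myoblasts. The sample titles carry 1 shRNA code per target and there was 1 scramble line, so an effect of the target and of the particular shRNA line cannot be told apart. Whether libraries of the same group are separate cultures is not stated. The p-values set a difference between groups against the spread of libraries within groups, estimated over all 4 groups together. That spread can be technical variation.

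Library totals ran from 17763076 to 20400863 estimated counts. Each targeted gene was lower where its shRNA was used: Brd9 by 5.24-fold, Arid1a by 2.41-fold and Pbrm1 by 12.4-fold. Transcript GC content also set the libraries apart: among the 1229 tested genes of lowest GC content the median log2 deviation ran from −1.10 in Baf180 replicate 1 to 1.06 in Baf250A replicate 2, and was −0.18 and −0.01 in the scramble libraries. Each difference was therefore also computed with per-library offsets for transcript GC content and gene length, called below the values with offsets. Sgcb (43.9% GC) lay at the 16.5th percentile of tested genes in GC content, Sntb1 (45.5%), Sntb2 (46.0%), Sgce (46.7%), Sgcd (47.1%) and Utrn (47.9%) were also below the median of 50.5%, and Dag1 (54.2%) and Sgca (56.7%) were above it. Scramble replicate 2 stood apart in that counts were seen for 16449 genes, against 14240 to 14810 in each other library. Of the 12 myoblast markers, 11 could be tested (all but Pax3), and their sum was 2132 to 2164 CPM in the scramble libraries, 1917 to 2352 CPM with Brd9, 1037 to 1238 CPM with Baf250A and 2818 to 3829 CPM with Baf180 knockdown. Of the 11, 4 were called higher and 1 lower with Brd9 (beside 6.45% and 3.57% of all tested genes), 6 lower with Baf250A (14.0%), and 6 higher and 2 lower with Baf180 (17.2% and 17.0%). Myod1, the myoblast factor, was at 155 CPM in scramble.

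Compared per kilobase of gene length, with the lengths that the deposited table gives, Dag1 was the most abundant of the 9 transcripts. Its mean over the 8 libraries was 42.2 CPM per kb (CPM being counts scaled to a common library size), at the 84.1th percentile of the tested genes. Sgce followed at 15.4 CPM per kb, Sgcb at 8.90, Utrn at 5.65, Sntb2 at 5.24, Sgcd at 2.34, Sgca at 2.15, Sntb1 at 0.393 and Dmd at 0.0026. Dag1 and then Sgce led in every group, and Sntb1 and then Dmd came last in every group. In between, the order depended on the group: Sgca stood next to Sntb1 in scramble (0.359 against 0.306 CPM per kb, with overlapping libraries) and above Sgcd in the Brd9 group (5.26 against 2.41 CPM per kb, without overlap). The other neighbours in the order whose libraries overlapped were Utrn and Sntb2 in the Brd9 group, Utrn and Sgcb in the Baf250A group, and Sntb2 with Utrn and Sgcd with Sgca in the Baf180 group. The ratio of the highest to the lowest library in CPM was 23.6 for Sgca, 4.82 for Sntb1, 2.67 for Sgcb, 2.38 for Sgcd, 1.96 for Utrn, 1.63 for Dag1, 1.56 for Sntb2 and 1.47 for Sgce.

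**Figure D1:**
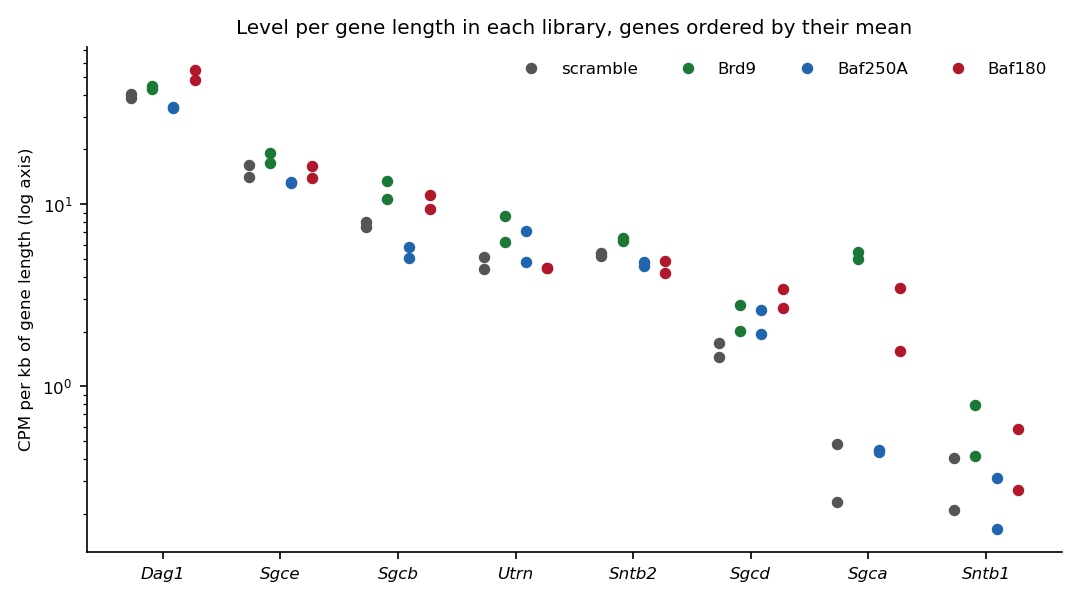
Level of the 8 tested genes in CPM per kb of gene length (log axis), 1 point per library, coloured by shRNA group and ordered by the mean over the 8 libraries. Dag1 lies highest, and Sgca spreads most, from 0.233 CPM per kb in a scramble library to 5.49 CPM per kb in a Brd9 library.

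Across the comparisons with scramble, adjusted p-values below 0.05 were called, from edgeR's quasi-likelihood test with Benjamini-Hochberg adjustment over all 12420 tested genes. After Brd9 knockdown 2 of the 8 tested genes rose and 0 fell, where 10.0% of all tested genes were called, 6.45% of them higher and 3.57% lower. After Baf180 knockdown 3 of 8 rose and 0 fell, where 17.2% of all tested genes were called higher and 17.0% lower (34.2% in all). After Baf250A knockdown 0 of 8 were called, where 29.5% of all tested genes were called (15.5% higher, 14.0% lower). At an unadjusted p below 0.05 that comparison held 1 of the 8, Sgcb, on the lower side, and DESeq2 and limma-voom also called 0. The median log2 fold change of the 8 genes was 0.62 for Brd9, −0.19 for Baf250A and 0.40 for Baf180, beside 0.04, −0.02 and −0.02 for all tested genes. These 3 comparisons share the 2 scramble libraries.

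With the offsets the counts were 2 higher and 0 lower for Brd9 (11.8% and 18.3% of all tested genes), 0 higher and 3 lower for Baf250A (17.7% and 17.4%), and 3 higher and 0 lower for Baf180 (17.7% and 20.0%). The genes differed in part, as given for each of them. In the Brd9 libraries all 8 tested genes lay above both scramble libraries in CPM, as did 33.8% of all tested genes. With the offsets 5 of the 8 did, beside 27.8% of all tested genes.

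**Figure D2:**
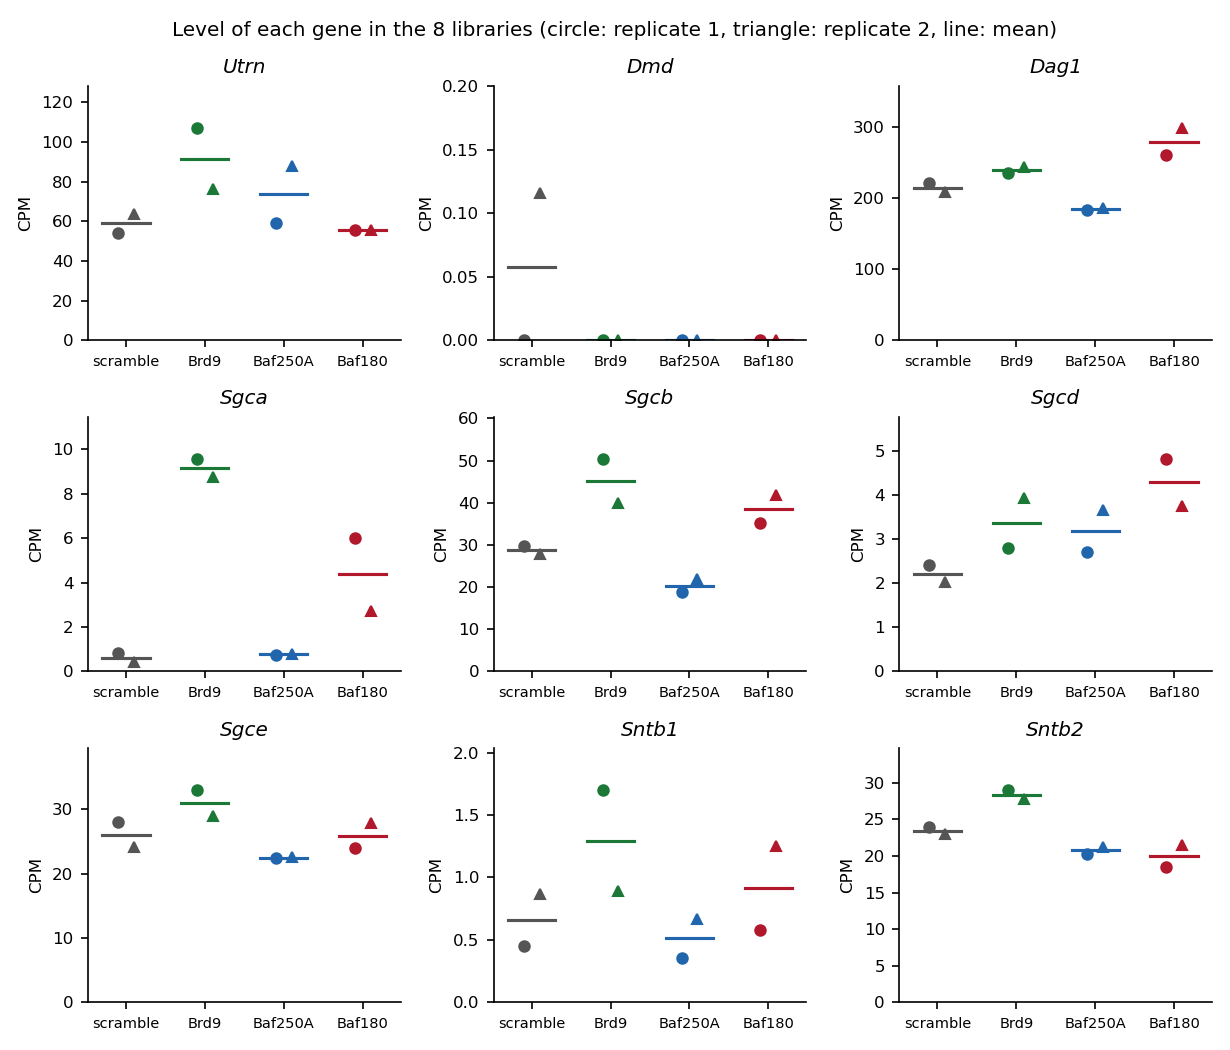
CPM of each of the 9 genes in the 8 libraries, with circles for replicate 1, triangles for replicate 2 and a line at the group mean; each panel has its own axis from 0. Sgca is at 8.75 and 9.55 CPM in the Brd9 libraries and at 2.73 and 6.03 CPM in the Baf180 libraries, against less than 1 CPM in the 4 scramble and Baf250A libraries.

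Dystrophin transcripts were almost not seen. Dmd (chromosome X, 82814664 to 85205050, plus strand, GRCm38, which mm10 also denotes), the gene of the actin-binding protein at the base of the complex, had 2 counts in scramble replicate 2 and 0 counts in each of the other 7 libraries. The library with the 2 counts is the one in which counts were seen for the most genes. The exact 95% Poisson interval of a count of 0 reaches up to 3.69 counts. A fixed floor of 3 counts corresponds to 0.145 to 0.174 CPM in these libraries. No difference between groups was detectable at this depth, and no fold change is given.

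Utrophin was the abundant member of the pair. Utrn (chromosome 10, 12382187 to 12869888, minus strand) stood at 54.4 and 63.7 CPM in the scramble libraries, 107 and 76.4 CPM in the Brd9 libraries, 59.3 and 87.8 CPM in the Baf250A libraries, and 55.6 and 55.6 CPM in the Baf180 libraries. Both Brd9 libraries were above both scramble libraries, while the Baf250A and Baf180 libraries overlapped them. The 2 libraries of the Brd9 group and of the Baf250A group differed widely, and in each the library with more Utrn was also the one with more signal from genes of low GC content (median log2 deviation 0.44 against 0.05 for Brd9, 1.06 against 0.48 for Baf250A).

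The log2 fold change of Utrn against scramble was 0.63 for Brd9 (SE 0.22, adjusted p = 0.09), 0.32 for Baf250A (SE 0.22, adjusted p = 0.274) and −0.09 for Baf180 (SE 0.22, adjusted p = 0.778), and none was called. The Brd9 value was called when DESeq2 was used (adjusted p = 0.0436), without the filter on low counts (0.00511) and in a fit of the 4 libraries of that comparison alone (0.0218). With the offsets the values were 0.30 (adjusted p = 0.0592), 0.02 (0.927) and 0.28 (0.0678), so that the value for Baf180 changed sign and none was called. On that scale Utrn stood at 61.4 and 61.5 CPM in the scramble libraries, 57.6 and 66.5 CPM in the Baf250A libraries, 81.1 and 69.9 CPM in the Brd9 libraries and 78.7 and 70.5 CPM in the Baf180 libraries.

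Dystroglycan transcripts were abundant in every group. Dag1 (chromosome 9, 108204861 to 108263977, minus strand), whose product is cut into the laminin-binding alpha and the transmembrane beta subunit, was at 221 and 209 CPM in the scramble libraries, 235 and 244 CPM in the Brd9 libraries, 183 and 186 CPM in the Baf250A libraries and 261 and 298 CPM in the Baf180 libraries. The 4 groups did not overlap, with Baf250A lowest and Baf180 highest. Dag1 rose with Baf180 knockdown by 0.38 on the log2 scale (SE 0.12, adjusted p = 0.0406). The Brd9 value was 0.16 (SE 0.12, adjusted p = 0.411) and the Baf250A value −0.22 (SE 0.12, adjusted p = 0.195).

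The Baf180 call on Dag1 was a narrow one. With the offsets its log2 fold change was 0.09 (SE 0.11, adjusted p = 0.539), and the Baf180 libraries, at 214 and 264 CPM on that scale, then overlapped the scramble libraries at 234 and 215 CPM. It also ended with upper-quartile scaling (adjusted p = 0.097), without the filter (0.0718) and when any library of the scramble, Baf250A or Baf180 groups was left out in turn (0.053 to 0.231).

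Among the sarcoglycans, Sgca and Sgcb were called higher after Brd9 knockdown, and Sgca and Sgcd after Baf180 knockdown. The promoters of these 3 genes are shown because they are the sarcoglycans called against scramble, with matches to the E-box letters CANNTG, which are the recognition letters of basic helix-loop-helix factors such as MyoD, in capitals. Each is the 250 bases before a transcription start in RefSeq's GRCm38.p6 annotation, written 5′ to 3′ on the gene's minus strand. The 3 windows are chr11:94976328-94976577 for Sgca, chr5:73647738-73647987 for Sgcb and chr11:47379326-47379575 for Sgcd, which lies before a start inside the annotated span of the gene.
Sgca: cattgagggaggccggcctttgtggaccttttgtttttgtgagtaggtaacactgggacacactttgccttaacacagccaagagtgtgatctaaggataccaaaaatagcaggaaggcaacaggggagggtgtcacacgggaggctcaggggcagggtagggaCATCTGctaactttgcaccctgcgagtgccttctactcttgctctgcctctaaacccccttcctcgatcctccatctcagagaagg
Sgcb: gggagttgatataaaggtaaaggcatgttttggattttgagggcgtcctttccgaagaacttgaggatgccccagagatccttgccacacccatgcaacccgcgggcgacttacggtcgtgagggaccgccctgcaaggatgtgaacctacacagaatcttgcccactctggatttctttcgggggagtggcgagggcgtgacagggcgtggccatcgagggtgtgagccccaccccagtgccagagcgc
Sgcd: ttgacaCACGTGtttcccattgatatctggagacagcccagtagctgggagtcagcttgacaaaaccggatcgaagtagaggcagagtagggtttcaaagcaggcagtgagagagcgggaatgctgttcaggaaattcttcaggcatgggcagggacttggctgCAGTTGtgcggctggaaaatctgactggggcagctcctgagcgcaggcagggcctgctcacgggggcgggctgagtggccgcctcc
The Sgca window held 1 match, whose first letter lay at position −86 from the start, the Sgcd window held 2, and the Sgcb window held none. CANNTG reads the same on both strands, and of 32851 promoter windows of this length 66.2% held at least 1 match and 31.8% at least 2. A match describes the letters only, and a window without one says nothing of the factors. The table of promoters held 6 of the 9 genes, and Sgce, Sntb1 and Sntb2 were not among them.

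Sgca (chromosome 11, 94962777 to 94976327, minus strand), which encodes alpha-sarcoglycan, the sarcoglycan known from striated muscle, had 15 and 7 counts with scramble and 15 and 15 with Baf250A shRNA, but 197 and 167 with Brd9 and 104 and 50 with Baf180 shRNA. In CPM these were 0.842 and 0.405, 0.754 and 0.775, 9.55 and 8.75, and 6.03 and 2.73. The Brd9 libraries were the highest, the Baf180 libraries came next without overlap, and the Baf250A libraries lay between the 2 scramble libraries. Exact 95% Poisson intervals, which cover counting error only, were 2.81 to 14.4 for the 7 counts of scramble replicate 2 and 143 to 194 for the 167 counts of Brd9 replicate 2.

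Sgca rose 14.5-fold with Brd9 knockdown, from 0.623 ± 0.310 to 9.15 ± 0.57 CPM (mean ± SD, n = 2 each), a log2 fold change of 3.86 (SE 0.45, adjusted p = 0.00116). It rose 6.91-fold with Baf180 knockdown, to 4.38 ± 2.33 CPM (log2 fold change 2.79, SE 0.46, adjusted p = 0.0030). The sizes rest on single libraries more than the calls do: without scramble replicate 1 the log2 fold changes were 4.48 for Brd9 and 3.41 for Baf180, and without Baf180 replicate 1 the latter was 2.11, all still called. For Baf250A the value was 0.29 (SE 0.55, adjusted p = 0.705). The spread between the Baf180 libraries was wide, and the difference from scramble was larger than it. With the offsets the values were 3.99 for Brd9, 2.34 for Baf180 and 0.66 for Baf250A, with the same calls. The level reached was still modest: 5.26 CPM per kb in the Brd9 group lay under that of every other tested member of the group except Sgcd and Sntb1. Since these are bulk samples, more cells with the transcript and more transcript per cell cannot be told apart.

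Sgcb (chromosome 5, 73632749 to 73647737, minus strand) encodes beta-sarcoglycan, a core subunit around which the others assemble. It stood at 29.7 and 27.9 CPM in the scramble libraries, 50.3 and 39.9 CPM in the Brd9 libraries, 18.9 and 21.8 CPM in the Baf250A libraries and 35.1 and 41.7 CPM in the Baf180 libraries. The Baf250A libraries were the lowest, both other knockdown groups were above scramble, and these 2 overlapped each other. Sgcb rose with Brd9 knockdown by 0.65 on the log2 scale (SE 0.17, adjusted p = 0.0445). The Baf250A value was −0.50 (SE 0.17, adjusted p = 0.056) and the Baf180 value 0.42 (SE 0.17, adjusted p = 0.0845).

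The offsets moved the values of Sgcb and changed its calls. With them it stood at 30.7 and 28.8 CPM in the scramble libraries, 37.7 and 38.4 CPM in the Brd9 libraries, 16.4 and 14.8 CPM in the Baf250A libraries and 58.7 and 54.8 CPM in the Baf180 libraries, so that no groups overlapped. Its log2 fold change against scramble was then 0.36 for Brd9 (SE 0.10, adjusted p = 0.0208), −0.93 for Baf250A (SE 0.10, adjusted p = 7.69e-05) and 0.93 for Baf180 (SE 0.10, adjusted p = 7.46e-05), and all 3 were called. Both scales had it lower with Baf250A knockdown and higher with the other knockdowns, and they differed on which of Brd9 and Baf180 was the higher. Without the offsets the Brd9 call ended without scramble replicate 1 (adjusted p = 0.193), scramble replicate 2 (0.257) or Brd9 replicate 1 (0.288). With the offsets it ended without any of the 4 libraries of that comparison (adjusted p = 0.0539 to 0.137), whereas the Baf250A and Baf180 calls stayed in all 8 fits that left out a library.

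Sgcd (chromosome 11, 46971077 to 47989451, minus strand), which encodes delta-sarcoglycan, a further core subunit, was a low transcript with 35 to 83 counts per library. It was at 2.41 and 2.02 CPM in the scramble libraries, 2.81 and 3.93 CPM in the Brd9 libraries, 2.72 and 3.67 CPM in the Baf250A libraries and 4.81 and 3.76 CPM in the Baf180 libraries. All 6 knockdown libraries were above both scramble libraries. Sgcd rose 1.93-fold with Baf180 knockdown (log2 fold change 0.95, SE 0.29, adjusted p = 0.035).

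For Brd9 the value of Sgcd was 0.60 (SE 0.30, adjusted p = 0.206) and for Baf250A 0.52 (SE 0.30, adjusted p = 0.20), and neither was called. With the offsets the Baf180 value was 1.22 (SE 0.28, adjusted p = 0.00691). Without them the call ended with DESeq2 (adjusted p = 0.0738) and when scramble replicate 1 (0.099), scramble replicate 2 (0.178) or Baf180 replicate 1 (0.175) was left out.

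Sgce (chromosome 6, 4674350 to 4747204, minus strand), an imprinted gene whose product, epsilon-sarcoglycan, resembles alpha-sarcoglycan, was the most even of the tested genes. It stood at 28.0 and 24.1 CPM in the scramble libraries, 32.9 and 29.0 CPM in the Brd9 libraries, 22.4 and 22.6 CPM in the Baf250A libraries and 23.9 and 27.9 CPM in the Baf180 libraries. The Brd9 libraries were above and the Baf250A libraries below the scramble libraries, which the Baf180 libraries overlapped. No log2 fold change was called: 0.25 for Brd9 (SE 0.16, adjusted p = 0.317), −0.21 for Baf250A (SE 0.16, adjusted p = 0.32) and −0.01 for Baf180 (SE 0.16, adjusted p = 0.973). With the offsets Sgce was called lower with Baf250A knockdown (−0.34, SE 0.11, adjusted p = 0.031), a call that stayed in 3 of 8 fits leaving out a library, those without scramble replicate 2 or either Baf180 library (adjusted p up to 0.274 in the others). The Baf180 value with the offsets was 0.26 (adjusted p = 0.0836). The contrast with its paralogue Sgca was one of size: in scramble Sgce was 15.2 CPM per kb against 0.359 for Sgca, and in the Brd9 group 18.1 against 5.26.

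The syntrophins, adaptors that bind dystrophin, utrophin and dystrobrevin, were not called in any comparison with scramble under TMM scaling. Sntb2 (chromosome 8, 106935740 to 107014232, plus strand) stood at 23.9 and 23.0 CPM in the scramble libraries, 28.9 and 27.7 CPM in the Brd9 libraries, 20.3 and 21.3 CPM in the Baf250A libraries and 18.5 and 21.6 CPM in the Baf180 libraries. The Brd9 libraries were above scramble and the other 4 knockdown libraries below it. Its log2 fold change was 0.27 for Brd9 (SE 0.15, adjusted p = 0.25), −0.17 for Baf250A (SE 0.15, adjusted p = 0.391) and −0.23 for Baf180 (SE 0.15, adjusted p = 0.264).

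With the offsets Sntb2 was called lower with Baf250A knockdown (−0.45, SE 0.12, adjusted p = 0.0159), which ended without scramble replicate 1 (adjusted p = 0.0859), scramble replicate 2 (0.0525) or Baf250A replicate 2 (0.168). The signs of the other values changed, to −0.01 for Brd9 (adjusted p = 0.964) and 0.11 for Baf180 (adjusted p = 0.494). Sntb1 (chromosome 15, 55636388 to 55907302, minus strand) was close to the limit of counting, with 8 and 15 counts with scramble, 35 and 17 with Brd9, 7 and 13 with Baf250A and 10 and 23 with Baf180 shRNA. In CPM its Brd9 libraries (1.70 and 0.890) were above the scramble libraries (0.449 and 0.867), narrowly for the lower of them, and the other groups overlapped scramble. Its log2 fold changes were 0.98 for Brd9 (SE 0.55, adjusted p = 0.259), −0.36 for Baf250A (SE 0.62, adjusted p = 0.676) and 0.49 for Baf180 (SE 0.58, adjusted p = 0.535). At these counts changes of such a size were not detectable.

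**Figure D3:**
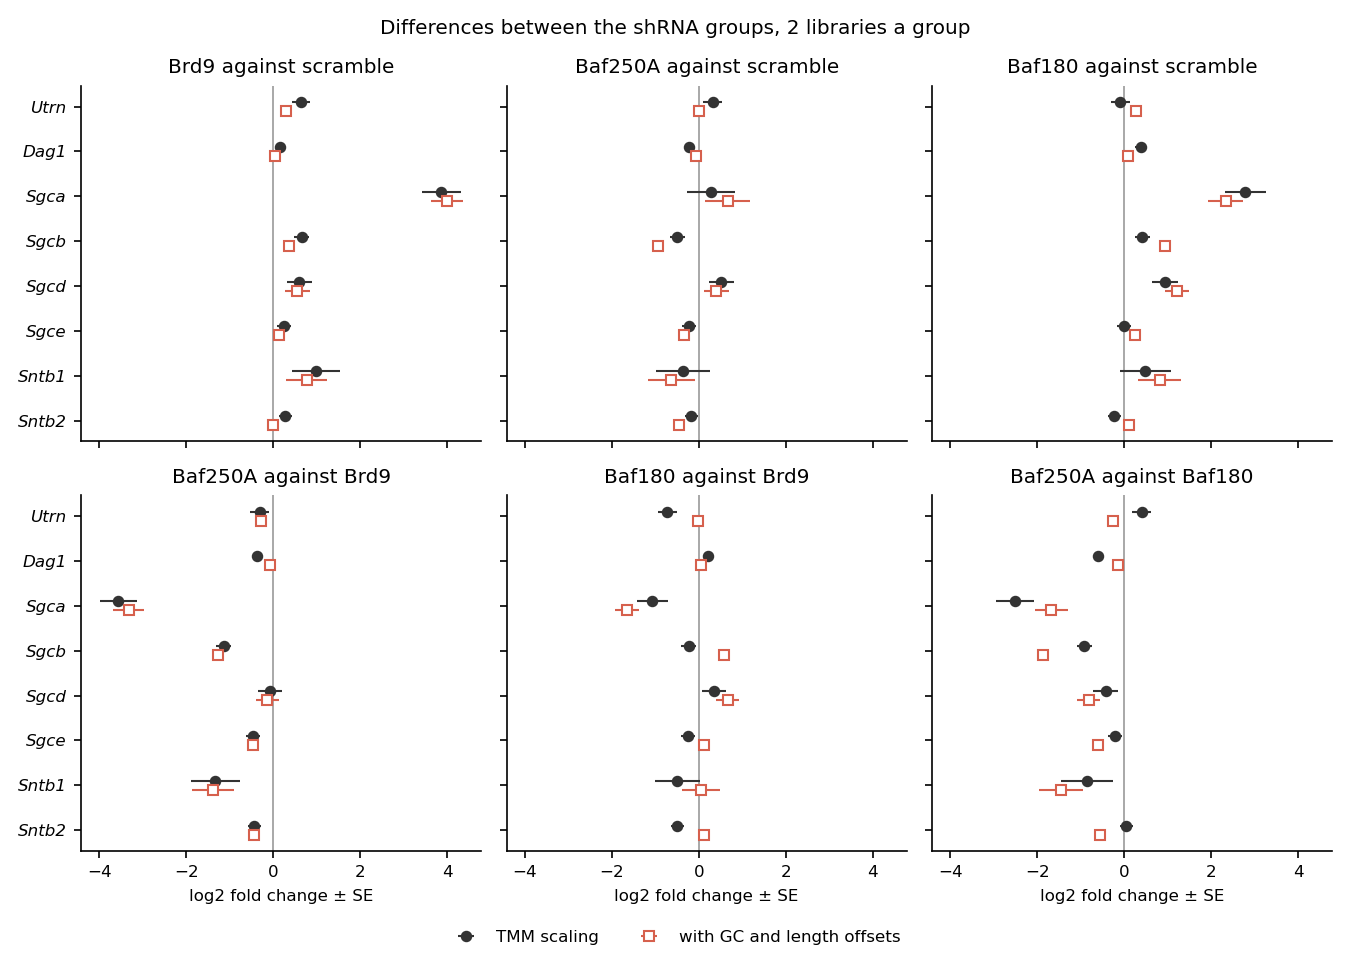
Log2 fold change of the 8 tested genes in the 6 comparisons between shRNA groups, 2 libraries a group, under TMM scaling (filled circles) and with GC and length offsets (open squares); bars are standard errors and some are smaller than the symbols. Under TMM scaling Sgca has the largest change in every panel but Baf250A against scramble, and the offsets move Sgcb from 0.42 to 0.93 for Baf180 against scramble and from −0.50 to −0.93 for Baf250A against scramble.

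The knockdowns were also compared with each other. Baf250A against Brd9 called 2 of the 8 genes, both lower, where 25.0% of all tested genes were called (15.0% lower). Sgca fell by 3.57 on the log2 scale between Brd9 and Baf250A knockdown (SE 0.43, adjusted p = 0.000552), a level 11.9-fold lower. Sgcb fell by 1.15 (SE 0.17, adjusted p = 0.00185). With the offsets 5 of 8 were called lower, beside 18.8% of all tested genes: Sgca (−3.33), Sgcb (−1.28), Sgce (−0.48), Sntb1 (−1.40) and Sntb2 (−0.44).

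Baf250A against Baf180 called 3 of 8, all lower, where 62.5% of all tested genes were called (31.7% lower). The log2 fold change was −2.50 for Sgca (SE 0.44, adjusted p = 0.0012), −0.92 for Sgcb (SE 0.17, adjusted p = 0.00167) and −0.60 for Dag1 (SE 0.12, adjusted p = 0.00268). Without Baf180 replicate 1 the Sgca value was −1.83, still called. With the offsets 6 of 8 were called lower, beside 26.2% of all tested genes. These held Sgca (−1.68), Sgcb (−1.86), Sgcd (−0.81), Sgce (−0.60), Sntb1 (−1.45) and Sntb2 (−0.56), while Dag1 was at −0.14 (adjusted p = 0.278).

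Baf180 against Brd9 called 3 of 8, all lower in the Baf180 group, where 49.6% of all tested genes were called (26.3% lower). The log2 fold change was −1.07 for Sgca (SE 0.36, adjusted p = 0.0344), −0.72 for Utrn (SE 0.22, adjusted p = 0.0234) and −0.50 for Sntb2 (SE 0.15, adjusted p = 0.0241). With the offsets Sgca was still called lower (−1.66, SE 0.28, adjusted p = 0.00205; 14.0% of all tested genes were called lower), whereas Utrn was at −0.02 (adjusted p = 0.907) and Sntb2 at 0.12 (adjusted p = 0.469). Sgcb was then called higher with Baf180 (0.58, SE 0.10, adjusted p = 0.00207; 18.9% of all tested genes higher). The Sgca call in this comparison ended without the offsets when Brd9 replicate 1 (adjusted p = 0.146), Brd9 replicate 2 (0.0642) or Baf180 replicate 2 (0.138) was left out, and the last of these moved the log2 fold change to −0.60. Without Baf180 replicate 1 it was −1.74, still called. The Utrn call ended without Brd9 replicate 1 (adjusted p = 0.184), Baf180 replicate 1 (0.105) or Baf180 replicate 2 (0.0589). The Sntb2 call ended without either scramble library, either Brd9 library or Baf180 replicate 1 (adjusted p up to 0.143).

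The markers of other cell states moved in these libraries too. Of the 18 markers of differentiated muscle 8 could be tested. With Brd9 knockdown 5 were called higher (Myog, Mymk, Myh3, Mylpf and Casq2), beside 6.45% of all tested genes. The rises were from low levels: Myog, the factor of terminal differentiation, was at 0.228 CPM in scramble and 1.17 CPM in the Brd9 group. The summed level of the 18 markers was 20.8 to 25.9 CPM in the scramble libraries and 21.1 to 26.9 CPM in the Brd9 libraries, which overlapped. It was 39.1 to 43.6 CPM in the Baf250A libraries and 99.7 to 120 CPM in the Baf180 libraries. In the Baf180 group Myog (1.49 CPM) and Acta1 (104 CPM) rose and Ttn fell, and in the Baf250A group Acta1 rose and Ttn fell. Of all tested genes 17.2% were called higher and 17.0% lower with Baf180, and 15.5% and 14.0% with Baf250A. The summed level of the 8 smooth muscle markers was 4836 to 4850 CPM in the scramble libraries, 6312 to 7916 CPM with Brd9, 9630 to 11355 CPM with Baf250A and 10730 to 13787 CPM with Baf180 knockdown.

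The 12 fibroblast and adipogenic markers, of which Lum and Plin1 were at 0 in every library, summed to 899 to 953 CPM in scramble and 1303 to 2073 CPM in the knockdown libraries. The 8 Schwann and glial markers summed to 25.3 to 27.7 CPM in scramble and 43.3 to 57.0 CPM in the knockdown libraries, most of it Drp2, which is also a relative of dystrophin. The 8 neuronal markers summed to 696 to 763 CPM in scramble and 62.3 to 358 CPM in the knockdown libraries. The 8 endothelial and immune markers stayed at 2.32 to 3.94 CPM in all libraries, with Adgre1 at 0. The part of these differences in the levels of the complex genes was not tested.

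Other genes of the complex and its pathway were described from 6 lists. The shares of all tested genes called higher and lower, to be read beside each list, were 6.45% and 3.57% for Brd9. They were 15.5% and 14.0% for Baf250A, and 17.2% and 17.0% for Baf180. With the offsets they were 11.8% and 18.3%, 17.7% and 17.4%, and 17.7% and 20.0%. No list was tested against these shares. Of 11 further complex members 7 could be tested, and 1 rose with Brd9, 1 with Baf250A and 4 with Baf180 knockdown, with 0 called lower in each (at an unadjusted p below 0.05, Dtnb was lower with Brd9 and 0 with the others, and DESeq2 and limma-voom also called 0 lower). Their median log2 fold change was 0.65, 0.30 and 1.35. With the offsets the calls were 2 higher and 1 lower, 2 and 0, and 4 and 0. Drp2, a dystrophin-related protein, rose in all 3, from 13.3 ± 1.1 CPM to 33.4 ± 0.1 CPM with Brd9 (log2 fold change 1.33, SE 0.15, adjusted p = 0.000961), to 23.7 ± 1.3 CPM with Baf250A (0.83, SE 0.15, adjusted p = 0.0047) and to 35.5 ± 1.9 CPM with Baf180 (1.41, SE 0.15, adjusted p = 0.000331). With Baf180 knockdown Sspn, sarcospan, a membrane protein beside the sarcoglycans, rose by 0.56 (adjusted p = 0.0432). Nos1 and the dystrobrevins Dtna and Dtnb were not called. Sgcz (at most 1 count in a library), Sntg1 (4), Sntg2 (1) and Cav3 (5) were too low to be tested.

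The dystroglycan ligands were the list with most calls. Of 16 ligands 11 could be tested: 6 were higher and 1 lower with Brd9, 7 higher and 2 lower with Baf250A, and 10 higher and 0 lower with Baf180 knockdown (0 lower also at an unadjusted p below 0.05 and with DESeq2 and limma-voom). Their median log2 fold change was 0.64, 0.54 and 1.27, beside 0.04, −0.02 and −0.02 for all tested genes, and with the offsets the calls were 6 higher and 2 lower, 7 and 3, and 8 and 0. Lama4, a laminin alpha chain, rose from 0.909 ± 0.223 CPM to 4.31 ± 0.83 CPM with Brd9 (log2 fold change 2.24, adjusted p = 0.0013), 27.7 ± 0.6 CPM with Baf250A (4.92, adjusted p = 1.11e-05) and 21.2 ± 1.6 CPM with Baf180 (4.53, adjusted p = 1.63e-05). Lama2, the laminin alpha chain of the muscle basement membrane, rose with Brd9 (2.44, adjusted p = 0.000219) and Baf180 (2.01, adjusted p = 0.00028) and was at −0.38 with Baf250A (adjusted p = 0.199), the same 2 groups in which Sgca rose. Lama5 fell by 1.45 with Baf250A (adjusted p = 0.000218), Agrn, agrin, also fell with Baf250A (−0.75), and Bgn, biglycan, fell with Brd9 (−0.85). Slit2, an axon guidance ligand, rose from 19.3 CPM in scramble to 56.2 CPM with Brd9 (1.54) and 61.1 CPM with Baf250A (1.66). Its mean over all 8 libraries was 47.5 CPM, so its mean with Baf180 was above scramble too. Hspg2, perlecan, rose with Baf180 (1.76, adjusted p = 0.00028).

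Of the 19 genes of dystroglycan glycosylation 18 could be tested, Dag1 among them. With Brd9 knockdown 0 were called (1 higher at an unadjusted p below 0.05, and 0 with DESeq2 and limma-voom). With Baf250A 2 of the 18 were higher and 4 lower, beside 15.5% and 14.0% of all tested genes. With Baf180 5 were higher and 2 lower, beside 17.2% and 17.0%. The medians were 0.10, −0.23 and 0.37, and with the offsets the calls were 0 higher and 1 lower, 1 and 4, and 3 and 0. B4gat1, a glucuronyltransferase of the laminin-binding glycan, moved oppositely, from 34.5 CPM to 17.6 CPM with Baf250A (−0.97, SE 0.21, adjusted p = 0.0106) and to 60.0 CPM with Baf180 (0.80, SE 0.21, adjusted p = 0.0181). Pomgnt1 (−0.63) and Pomgnt2 (−0.94) fell with Baf250A, and Pomt2 rose with Baf180 (0.57, adjusted p = 0.0114). Other calls were Dpm2 (−0.55) for Baf250A, and Pomt1 (0.56), Pomk (0.52), Dag1 and B3galnt2 (−0.62) for Baf180, of which Pomt1, Dag1 and B3galnt2 were not called with the offsets. Rxylt1 fell with Baf180 (−0.55, adjusted p = 0.0418), but not with the offsets (−0.0039, adjusted p = 0.983).

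Of the 20 linkers to the cytoskeleton and the parallel integrin adhesion 17 could be tested, Utrn among them, and 0 were called with Brd9 (4 higher and 3 lower at an unadjusted p below 0.05, 1 higher with DESeq2, which was Utrn, and 0 with limma-voom). With Baf250A 2 of the 17 were higher and 4 lower, beside 15.5% and 14.0% of all tested genes. With Baf180 7 were higher and 1 lower, beside 17.2% and 17.0%. The medians were 0.06, −0.22 and 0.17, and with the offsets the calls were 1 higher and 4 lower, 2 and 4, and 5 and 1. Itga7, the laminin-binding integrin alpha chain of muscle, fell from 282 CPM to 67.5 CPM with Baf250A (−2.06, SE 0.18, adjusted p = 0.000119), as did Ank2 (−1.17), Flnc (−0.71) and Grb2 (−0.37), while Synm (1.39) and Krt19 (0.77) rose. Ank2 also fell with Baf180 (−0.72). With Baf180 Krt19 (1.60), Tln1 (0.80) and Flnc (0.62) rose, the last of which was not called with the offsets (0.25, adjusted p = 0.114).

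Of the 14 membrane repair genes 11 could be tested: 1 was higher and 1 lower with Brd9, 0 higher and 3 lower with Baf250A (0 higher also at an unadjusted p below 0.05 and with DESeq2 and limma-voom), and 4 higher and 1 lower with Baf180. The medians were −0.23, −0.42 and 0.49, and with the offsets the calls were 2 higher and 2 lower, 0 and 3, and 3 and 2. Dysf, dysferlin, which acts in resealing of the muscle membrane, rose from 6.25 CPM to 24.8 CPM with Brd9 (1.99, SE 0.22, adjusted p = 0.000916) and to 54.0 CPM with Baf180 (3.11, SE 0.23, adjusted p = 5.27e-05). The annexin Anxa5 fell with Brd9 (−0.67) and with Baf250A (−0.67), Anxa6 (−1.08) and Smpd1 (−0.62) fell with Baf250A, and Ehd2 (0.88), Smpd1 (0.69) and Cavin1 (0.65) rose and Anxa1 (−0.86) fell with Baf180, of which Cavin1 was not called with the offsets.

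Of the 14 regulators of utrophin and dystrophin transcription 12 could be tested, with 0 called for Brd9 (1 higher and 2 lower at an unadjusted p below 0.05, 1 higher with DESeq2, which was Tead1, and 0 with limma-voom), 4 higher and 1 lower for Baf250A, and 1 higher and 5 lower for Baf180. The medians were 0.05, 0.49 and −0.50, and with the offsets the calls were 0 higher and 4 lower, 4 and 0, and 0 and 4. Gabpa, a subunit of the ETS factor known to act on the utrophin promoter, rose with Baf250A (1.07, adjusted p = 0.0119), which was not called with the offsets (0.26, adjusted p = 0.0973), as for Srf with Baf180 (0.54, and −0.03 with the offsets). Sp3 rose with Baf250A (1.36) and fell with Baf180 (−1.11). With the offsets these were 0.47, still called, and −0.31, not called (adjusted p = 0.0712). Tead1 rose with Baf250A (0.96), and Ezh2 fell with Baf180 (−0.74, adjusted p = 0.0129). The other calls were Sp1 (0.71) and Erf (−0.60) for Baf250A, and Mef2a (−0.998), Yy1 (−0.76) and Gabpa (−0.81) for Baf180, of which Sp1, Erf and Gabpa were not called with the offsets.

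**Figure D4:**
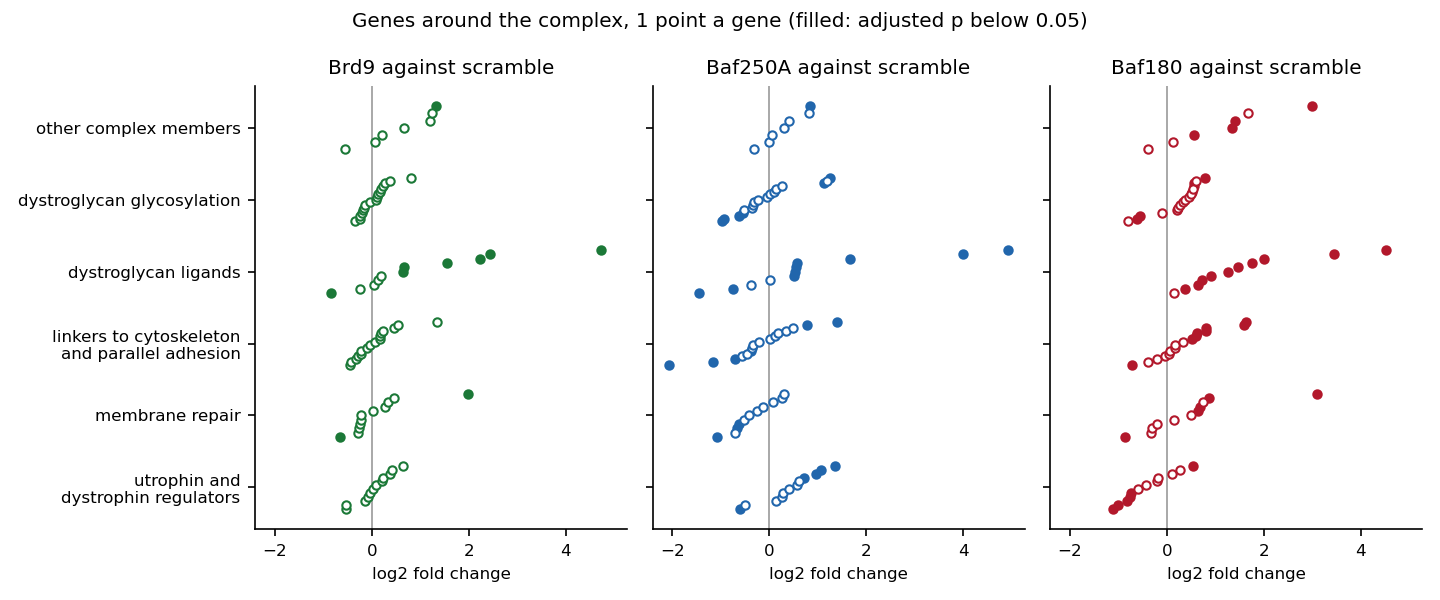
Log2 fold change against scramble of the tested genes of 6 lists, 1 point a gene (filled where the adjusted p is below 0.05), in the 3 knockdowns. Dag1 and Utrn, which the text counts in their lists, are not drawn here. The dystroglycan ligands hold the most filled points, 7 of 11 for Brd9, 9 of 11 for Baf250A and 10 of 11 for Baf180.

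For each of the 8 tested genes the most similar profiles were sought among 9803 other genes whose mean reached 5 CPM, by the root mean square difference of log2 CPM centred on each gene's mean over the 8 libraries. For Sgca the nearest were Islr (0.502) and Fbln7 (0.555), against a root mean square of 1.60 for Sgca itself. Islr was at 12.6 CPM in scramble, 121 CPM with Brd9, 12.4 CPM with Baf250A and 101 CPM with Baf180 knockdown, and Fbln7 at 0.969, 13.2, 0.966 and 10.8 CPM. Both were high in the 2 groups in which Sgca was high, which follows from choosing them for their nearness to Sgca. The nearest to Sgcb were Plekhm3 (0.0844) and Prune2 (0.0938), to Utrn Rnf24 (0.0862) and Usp46 (0.0865), and to Dag1 Tmem9b (0.0533) and Ltbp1 (0.0542). Sgcd was nearest to Hsd17b11 (0.154) and Stard5 (0.156), Sgce to Tpbg (0.0563), Sntb1 to Aldh6a1 (0.263) and Setbp1 (0.264), and Sntb2 to Nrbf2 (0.0565) and Hibadh (0.0685). The 8 points behind each value share libraries and depth, and no test was made of them.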

How the data were processed

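RNA of 8 C2C12 libraries was analysed from a table of estimated counts per gene that the authors deposited, which are not normalised. Per the submitters' processing notes the build was mm10 and the tools were RSEM, Bowtie2, HISAT2, StringTie, Cufflinks and DESeq2, with roles and versions not given in the sources used here. Per the file headers another column gives gene length in bases. Library preparation is not stated to keep strand, so reads of genes that overlap on opposite strands cannot be told apart; the overlapping antisense genes of Sgca and Dmd had 1 count each in all.

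Of 24573 genes, 24479 were named by gene ID and 9 by accession. Counts were rounded, filtered with filterByExpr (12420 genes left), scaled by TMM and fitted over all 8 libraries with edgeR 4.0.16 (R 4.3.3; glmQLFit, glmQLFTest, groups only), with Benjamini-Hochberg adjustment over all tested genes in each of 6 comparisons and a threshold of 0.05. CPM use TMM-scaled library sizes. Offsets are loess curves (span 0.3) on transcript GC content, known for 99.0% of tested genes, and on length; they also remove changes that follow GC content. Alternatives were DESeq2 1.42.0, limma-voom (limma 3.58.1), upper-quartile or RLE scaling, no filter or one at 5 CPM on the mean, a block for the replicate number, only the 4 libraries compared, and each library left out, which for the fits with offsets was added after the data were seen. On simulated counts for Brd9 against scramble (12420 genes) the fit recovered 13.3% of 1.5-fold, 66.7% of 2-fold and 92.6% of 4-fold changes, with 7 false calls. Only 60, 72 and 68 genes were changed by these folds, and no trend with GC content was put in. In the data 10.0% of tested genes were called in that comparison and GC content set the libraries apart. The recovery and the false calls therefore need not carry over to them.

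The genes and lists were chosen with earlier results of these data known. Named are all 9 genes and, per list and comparison with scramble, up to 3 called genes of lowest p whose mean reached 5 CPM and whose groups did not overlap, and the 2 nearest profiles of each gene. Other genes, such as the markers that were called and those that complete a small count, were named after their values were seen. Some genes of the lists and 1 nearest profile are not reported here by name.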

Additional observations from a re-analysis of the deposited data

How the results depend on the processing

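With 2 libraries a group and few counts for Sgca, Sgcd and Sntb1, small differences were not detectable. Of 852 refits of 32 gene results, 678 kept direction and side of the threshold, 61 lost the call, 49 gained it and 64 turned sign. In the 16 fits that left out a library, with or without offsets, Sgca stayed called for Brd9 (3.43 to 4.62) and Baf180 (1.86 to 3.41) against scramble. It stayed so for Baf250A against Brd9 (−3.60 to −3.15) and Baf180 (−2.97 to −1.20), as did Sgcb (−1.35 to −0.94 and −1.92 to −0.77). The number of called genes, with the range over left-out libraries, was 2 for Brd9 against scramble (1 to 3; 1 when filtered at 5 CPM) and 0 for Baf250A against scramble (0 to 3; 1 with upper-quartile scaling, without the filter and with 4 libraries alone, 3 with the offsets). It was 3 for Baf180 against scramble (1 to 3; 1 when filtered at 5 CPM, which leaves fewer genes tested) and 2 for Baf250A against Brd9 (2 to 5; 4 with upper-quartile scaling, 5 with the offsets). It was 3 for Baf180 against Brd9 (0 to 3) and 3 for Baf250A against Baf180 (3 to 6; 6 with the offsets). Signs turned with the offsets, alone and with the block, for Sntb2 with Brd9 (−0.0088 and −0.0080) and Baf180 (0.11), Utrn (0.28) and Sgce (0.26) with Baf180, and Sntb2 for Baf180 against Brd9 (0.12). Among differences not called without offsets, the offsets also turned Sgcb (−0.23 to 0.58), Sgce (−0.26 to 0.12) and Sntb1 (−0.49 to 0.05) for Baf180 against Brd9, and Sntb2 (0.05 to −0.56) and Utrn (0.40 to −0.26) for Baf250A against Baf180. Fits that left out a library, taken with and without offsets together, ran to both sides of 0 in these ranges: Dag1 −0.028 to 0.21 for Brd9, −0.26 to 0.0024 for Baf250A and −0.060 to 0.47 for Baf180; Utrn −0.080 to 0.64 for Baf250A, −0.19 to 0.37 for Baf180 and −0.95 to 0.10 for Baf180 against Brd9. For Sgca the range was −0.14 to 1.29 with Baf250A, for Sgce −0.12 to 0.36 with Baf180, and for Sntb1 −1.03 to 0.18 with Baf250A and −0.17 to 1.38 with Baf180. For Sntb2 it was −0.12 to 0.33 with Brd9, −0.34 to 0.15 with Baf180 (below 0 in all fits without offsets and above it in all with them) and −0.61 to 0.24 for Baf180 against Brd9. The cause was not tested.

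The replicate numbers are not stated to pair samples, and deviations of same-numbered libraries correlated at −0.05, 0.12 and 0.02 for Brd9, Baf250A and Baf180 with scramble, and at −0.47, −0.48 and 0.46 for Baf250A with Brd9, Baf180 with Brd9 and Baf250A with Baf180. With the number as a block 1, 0 and 1 genes were called in these comparisons, and 2, 3 and 3 in the others; Sgcb with Brd9 (adjusted p = 0.0862), and Dag1 (0.0839) and Sgcd (0.0528) with Baf180, were not called. With offsets and block the counts were 2, 3, 3, 5, 2 and 6. With the Brd9 numbers crossed, tried after the data were seen, they were 3, 1, 4, 6, 3 and 4.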

Other observations

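The genes that neighbour Sgca on chromosome 11 were read as a description, chosen after the values of Sgca were seen. Of genes within 100 kb, 5 could be tested, and their log2 fold changes against scramble are given in the order Brd9, Baf250A, Baf180. Pdk2, which lies 49931 bases from Sgca and encodes a kinase of pyruvate dehydrogenase, was at 1.10, −0.0021 (adjusted p = 0.995) and 2.19 and was called in the Brd9 and Baf180 comparisons (adjusted p = 0.0181 and 0.000303), the 2 in which Sgca was called. Col1a1, a collagen chain 9735 bases away, was called higher in all 3 (1.00, 0.77 and 1.26). Samd14 was at 0.38 (adjusted p = 0.203), −0.92 and 1.56, Ppp1r9b at 0.16 (adjusted p = 0.552), −0.12 (adjusted p = 0.613) and 0.80, and Itga3 at −0.42 (adjusted p = 0.172), −0.76 and 0.25 (adjusted p = 0.319). For Samd14, Ppp1r9b and Itga3 the values without a p passed the threshold of edgeR's quasi-likelihood test, and the offsets changed some calls. With them Ppp1r9b was not called for Baf180 (adjusted p = 0.0522) and was called higher for Baf250A (0.26, adjusted p = 0.0321), and Samd14 (0.37, adjusted p = 0.0105) and Itga3 (−0.48, adjusted p = 0.00846) were called for Brd9, while Itga3 for Baf180 turned to −0.17 (adjusted p = 0.224). Whether these genes change together beyond other neighbours was not tested.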
